A study of Mus musculus with 2 samples.

Results

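CCR2 is the main receptor for the monocyte-attracting CC chemokines, and the genes described here are Ccr2 (ENSMUSG00000049103) and its ligand genes Ccl2 (ENSMUSG00000035385), Ccl7 (ENSMUSG00000035373), Ccl8 (ENSMUSG00000009185) and Ccl12 (ENSMUSG00000035352). These 5 genes were taken by symbol from the 32285 genes of the deposited gene table, and all 5 were detected in both libraries. The chemokines are small secreted proteins that bind receptors coupled to G proteins, and cells that carry the receptor move toward the source. CCR2 is known for bringing Ly6C-high monocytes out of the bone marrow and into inflamed tissue and tumours. CCL2, CCL7 and mouse CCL12 are strong CCR2 agonists, whereas mouse CCL8 is known mainly as a ligand of CCR8.

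The data were UMI counts from single cells sorted as CD45+ from B16-hAXL tumours, B16 being a mouse melanoma line. The mice were labelled WT and had been given PBS or 200 µg of 6C5, an antibody against the receptor tyrosine kinase AXL, by intraperitoneal injection, and the samples were labelled day 15. Strain, age, the number of mice and the number of injections are not stated in the labels. Each group was 1 library, so a ratio sets these libraries side by side without replicates, no p-value can be given, and the 95% intervals cover counting error only.

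The libraries held 78923567 (PBS) and 85921419 (6C5) UMIs over 546897 and 566018 barcodes. After filtering and removal of likely doublets, 4258 PBS and 4770 6C5 cells were named from marker genes, and 272 barcode sequences that passed the filter occurred in both libraries. The largest class was monocyte/macrophage-like, with 1935 and 1934 cells and median depths of 12359 and 10342 UMIs. Its mitochondrial share had a median of 0.697% and 0.278%, so the libraries differed in this measure of RNA quality, and its part in the ratios below was not tested. Ptprc, which encodes CD45, was found in 57.2% to 98.4% of the cells of each immune class and in 13.7% and 17.7% of the 117 and 350 melanoma-like cells that had come through the sort.

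The 4 ligand genes lie on the plus strand of chromosome 11 within 81.2 kb (GRCm38, GENCODE M21), in the order Ccl2 (chr11:82035571-82037453), Ccl7 (chr11:82045712-82047525), Ccl12 (chr11:82101845-82103400) and Ccl8 (chr11:82115185-82116799). Ccl11, the gene of another CC chemokine, lies between Ccl7 and Ccl12. Ccr2 (chr9:124101950-124113557) is on the plus strand of chromosome 9. No stretch of 30 bases in the annotated transcripts of the 4 ligands occurred in a transcript of another gene. For Ccr2, 243 of 6744 such stretches occurred in transcripts of other genes, so some of its reads could have been split between genes or dropped.

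Ccl12 and Ccl8 are neighbours in this cluster and had the 2 largest ratios in monocyte/macrophage-like cells, so the 250 bases before their start sites are shown (RefSeq, GRCm38.p6, plus strand, 5′ to 3′). Capitals mark the letters TATAAA, known from the TATA box, and GAGGAA or its reverse complement, known as the core letters of PU.1 sites. The Ccl12 stretch is chr11:82101595-82101844 and the Ccl8 stretch chr11:82114935-82115184.
Ccl12: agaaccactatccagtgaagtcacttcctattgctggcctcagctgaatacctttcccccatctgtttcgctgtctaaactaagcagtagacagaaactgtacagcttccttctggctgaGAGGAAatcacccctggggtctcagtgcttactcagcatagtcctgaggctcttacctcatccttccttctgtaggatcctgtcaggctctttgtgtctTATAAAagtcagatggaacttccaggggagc
Ccl8: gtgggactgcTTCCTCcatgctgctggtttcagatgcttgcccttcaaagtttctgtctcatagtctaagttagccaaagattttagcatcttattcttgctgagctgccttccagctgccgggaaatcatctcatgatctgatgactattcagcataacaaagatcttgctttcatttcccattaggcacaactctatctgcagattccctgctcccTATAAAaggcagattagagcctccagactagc
TATAAA began 31 bases before the start of Ccl12 and 32 before that of Ccl8, and its letters stood on either strand in 13.6% of the 32851 promoter windows of 300 bases in the table. GAGGAA was on the plus strand of Ccl12 and the minus strand of Ccl8, and in 28.3% of all windows. When the windows were aligned in pairs, 58.0% of columns were identical between Ccl12 and Ccl8, against 48.8% for Ccl12 with Ccr2 and 49.8% for Ccl8 with Ccr2. The kappa B motif (in 1.47% of windows), the ISRE (3.44%), the GAS letters TTCNNNGAA (8.3%), the C/EBP letters TTGCNNAA (10.8%) and the AP-1 letters TGA and TCA around any base (7.81%) were found on neither strand of the windows of Ccl12, Ccl8 and Ccr2. Neither of the capitalised motifs was in the Ccr2 window. Ccl2 and Ccl7 had no entry in the table.

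Almost all ligand UMIs came from the monocyte/macrophage-like cells, as the plot of levels by class shows. In PBS these cells gave 97.3% of the Ccl2 UMIs of named cells, 98.0% of Ccl7, 97.7% of Ccl8 and 98.7% of Ccl12, and in 6C5 97.7%, 97.9%, 97.9% and 98.7%. With unnamed barcodes in the denominator as well, the shares were between 69.8% and 78.8%. Ccr2 was spread more widely. The same class gave 58.4% (57.2% to 59.6%) of its UMIs in PBS, against 78.0% (76.9% to 79.0%) in 6C5, and conventional DC-like and NK-like cells gave most of the rest. These shares also depend on the number of cells per class. In PBS and 6C5 there were 264 and 111 cDC1-like, 330 and 153 cDC2-like and 258 and 246 NK-like cells.

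**Figure D1:**
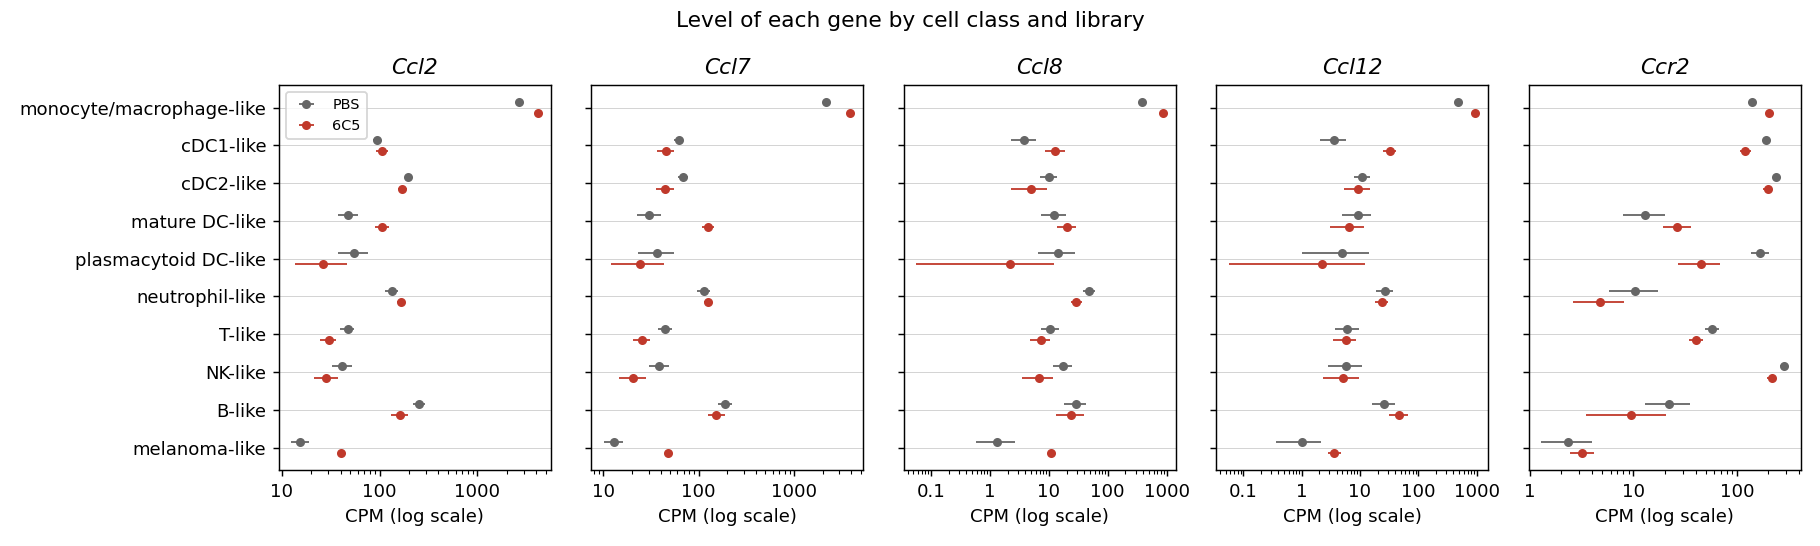
Level of each gene in 10 cell classes, as UMIs per 1000000 UMIs of the class (CPM, log scale), with 1 point per library (grey PBS, red 6C5) and exact Poisson 95% intervals. The ligands stand highest in monocyte/macrophage-like cells, whereas Ccr2 is also high in NK-like cells (287 and 217 CPM) and conventional DC.

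In monocyte/macrophage-like cells all 5 genes stood higher in the 6C5 library. Levels are given as CPM, the UMIs of the gene per 1000000 UMIs of the class. Ccl2 went from 2668 (PBS) to 4149.7 (6C5), with a ratio of 6C5 over PBS of 1.56 (1.54 to 1.57). Ccl7 went from 2186 to 3908 (1.79, 1.77 to 1.81). Free RNA was estimated to give between 2.24% and 6.70% of each gene's level in the class, in either library.

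Ccl12 went from 479.5 to 948 (1.98, 1.94 to 2.02) and Ccl8 from 386 to 864 (2.24, 2.19 to 2.29). The receptor gene Ccr2 went from 139 to 204 (1.47, 1.41 to 1.54). Of the 5 genes, Ccl8 alone reached a ratio of 2, as 3.47% of the 12387 genes measured in this class did upward. In the other direction 13.9% of genes were at least 2-fold lower, and none of the 5 was. The median log2 ratio of all genes measured was -0.32.

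TMM, a scaling that centres on the bulk of genes, moved all ratios of the class up by 0.33 on the log2 scale. It gave 1.96 for Ccl2, 2.25 for Ccl7, 2.82 for Ccl8, 2.49 for Ccl12 and 1.85 for Ccr2. Under TMM 6.03% of genes were at least 2-fold higher and 7.49% at least 2-fold lower, and 3 of the 5 genes passed 2-fold.

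The class itself was made up differently in the libraries. It was divided into subclusters without using these 5 genes or related chemokine and receptor genes, and the subclusters are called here by leading genes. The subcluster led by Klra17, Negr1 and Vcam1 held 551 PBS and 9 6C5 cells. The one led by cell-cycle genes held 291 and 51, and the one led by Lyve1, Fcna and Gas6 265 and 83. These counts leave out a shallow cluster led by Lyve1, Npl and Fcna (541 and 86 barcodes), which was set aside. In the other direction, the subcluster led by Gbp2b and Cxcl9, which are interferon-induced genes, held 49 and 482 cells. The one led by Nos2, Arg1 and Spp1 held 36 and 439, and the one led by Ctsk and Mmp12 70 and 361. A small one led by Hspb1, Adm and Ero1l held 37 and 79. Subclusters of more even size were led by Ace, Hp and Chil3 (290 and 242, with 8 of 9 classical monocyte markers, called monocyte-like below) and by Mgl2 and Ear2 (260 and 178). The Klra17 subcluster had the cDC1 marker Xcr1 among its 10 leading genes and the Mgl2 subcluster the cDC2 marker Mgl2 itself. Ace, a leading gene of the monocyte-like subcluster, is a marker of nonclassical monocytes, so that subcluster may hold more than 1 kind of monocyte. With 1 library per group, a subcluster that is mostly of 1 library may be that library and not a cell state.

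Giving both libraries the same makeup lowered the ratios of Ccl2, Ccl7, Ccl12 and Ccr2, but not that of Ccl8. Over the 8 subclusters with at least 30 cells in each library and with each library's own makeup, which already left out the Klra17 subcluster, the ratios were 1.26 (Ccl2), 1.49 (Ccl7), 1.98 (Ccl8), 1.66 (Ccl12) and 1.07 (Ccr2). With these subclusters weighted alike in both libraries, the ratio was 0.845 for Ccl2, 0.906 for Ccl7, 1.12 for Ccl12 and 0.750 for Ccr2. For Ccl8 it was 2.05. The ratios of Ccl2, Ccl7 and Ccr2 were thus below 1 at equal makeup, and that of Ccr2, near 1 over these subclusters beforehand, was the lowest. These ratios carry no interval, and part of their weight falls on subclusters with 36, 49 and 70 PBS cells. With the same makeup 1.98% of genes were at least 2-fold higher and 4.21% at least 2-fold lower. The median log2 ratio was -0.10 over all genes and -0.14 over the 5 genes, so a value slightly below 1 was near the background.

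**Figure D2:**
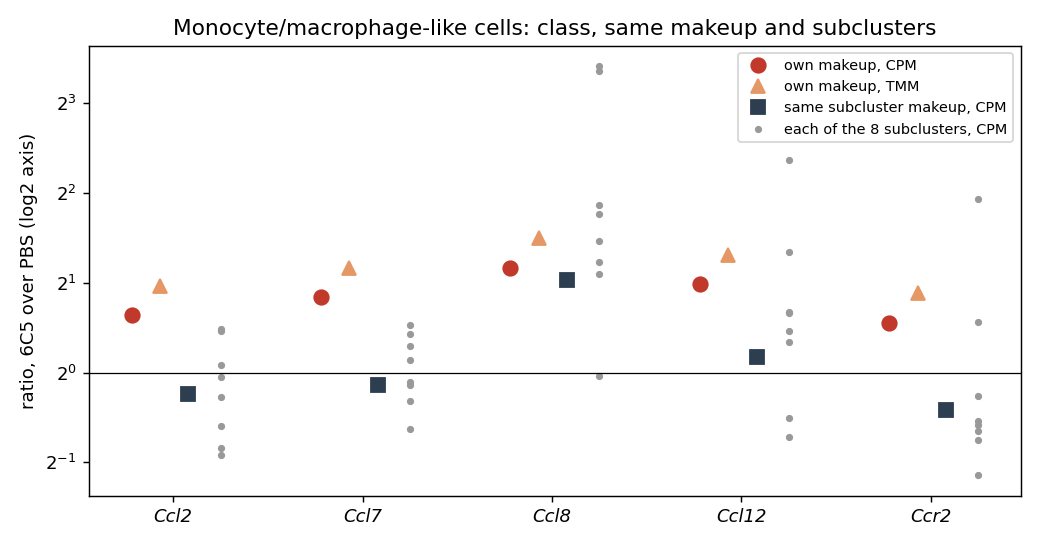
Ratio of 6C5 over PBS in monocyte/macrophage-like cells (log2 axis) for each gene: the class with each library's own makeup by CPM (circles) and TMM (triangles), the same subcluster makeup (squares), and each of 8 subclusters (dots). Ccl8 stays at 2.05 with the same makeup, while Ccl2, Ccl7 and Ccr2 lie below 1.

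Within subclusters Ccl2 was higher in 6C5 in 3 and lower in 5 of the 8. It ranged from 1783 to 8274 CPM in PBS and from 1686 to 6984 in 6C5. Its highest PBS level was in the Ctsk and Mmp12 subcluster, with 8274 in PBS against 4624 in 6C5 (ratio 0.559, 0.545 to 0.573). The monocyte-like subcluster had 2672 and 3687 (1.38, 1.33 to 1.43). No subcluster differed 2-fold in Ccl2 or in Ccl7.

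Ccl7 was higher in 4 and lower in 4 subclusters. Its highest PBS level was also in the Ctsk and Mmp12 subcluster, with 8232 in PBS against 5302 in 6C5 (0.644, 0.629 to 0.660). The subcluster led by Nos2, Arg1 and Spp1 had 6329 and 5089.9 (0.804, 0.771 to 0.839). In the Lyve1 subcluster Ccl7 went the other way, from 2799 to 3774 (1.35, 1.30 to 1.39).

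Ccl12 was higher in 6 of the 8 and at least 2-fold higher in 2. In the monocyte-like subcluster it went from 111 CPM (PBS) to 575 (6C5), a ratio of 5.18 (4.52 to 5.95), where 0.875% of genes were at least 2-fold higher. Free RNA was estimated to give 22.4 and 18.4 CPM there. After every cell was thinned to 1000 UMIs, 4.17% of its PBS and 14.1% of its 6C5 cells had a Ccl12 UMI. Without the cell with most Ccl12 in each library the ratio was 7.67.

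In the cell-cycle subcluster Ccl12 went from 378 to 962 (2.55, 2.37 to 2.74), where 2.71% of genes were at least 2-fold higher. In the Gbp2b and Cxcl9 subcluster it was lower in 6C5, at 1029.3 against 1698 (0.606, 0.568 to 0.647). There 1 cell held 390 of the 1099 PBS UMIs, and without the top cells the ratio was 0.883. Leaving out the top cell of each library everywhere, Ccl12 was at least 2-fold higher in 4 of the 8 subclusters.

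Ccl8 was at least 2-fold higher in 6C5 in 7 of the 8 subclusters, where the share of genes that far up was 0.875% (monocyte-like), 5.24% (Gbp2b and Cxcl9), 6.54% (Nos2, Arg1 and Spp1), 1.73% (Mgl2 and Ear2), 3.6% (Ctsk and Mmp12), 2.71% (cell cycle) and 7.44% (Hspb1, Adm and Ero1l). Of the 3683 genes measured in all 8, it was the only gene (0.0272%) to be so in 7 or more, a count chosen after its own values were known. Leaving out the top cell of each library, Ccl8 was at least 2-fold higher in 5 of the 8, with 0.926 in the monocyte-like and 1.96 in the cell-cycle subcluster. In the Hspb1 subcluster the top cells held 15 Ccl8 UMIs in PBS and 222 in 6C5. Its ratio was 10.3 with them and 19.3 without, from 37 PBS and 79 6C5 cells.

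The subclusters with most Ccl8 were those led by Gbp2b and Cxcl9, by Ctsk and Mmp12 and by Lyve1. In the first it went from 465 to 1587 CPM (3.41, 3.04 to 3.84), and 181 of the 301 PBS UMIs came from 1 cell, so that the ratio was 7.62 without the top cells. In the second it went from 519 to 1116 (2.15, 1.97 to 2.35). The Lyve1 subcluster was the exception, with 1150.1 in PBS and 1123 in 6C5 (0.976, 0.921 to 1.03). It gave 54.4% of the class's Ccl8 UMIs in PBS, whereas in 6C5 the Gbp2b and Cxcl9 subcluster gave 49.6% and the Ctsk and Mmp12 one 28.7%.

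In 3 subclusters the PBS level of Ccl8 was below the free-RNA estimate. In the monocyte-like subcluster Ccl8 measured 9.39 CPM in PBS, against an estimate of 26.8, and 22.0 in 6C5, against 17.6. The Mgl2 and Ear2 subcluster had 17.8 (estimate 28.5) and 64.8 (19.7), and the Nos2, Arg1 and Spp1 subcluster 28.0 (47.3) and 298 (19.6), from 11 UMIs in 36 PBS cells. Ccl8 was also the ligand with the most uneven spread over cells. The top 10% of monocyte/macrophage-like cells held 86.8% of its UMIs in PBS and 86.6% in 6C5, against 55.4% and 43.5% for Ccl2.

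**Figure D3:**
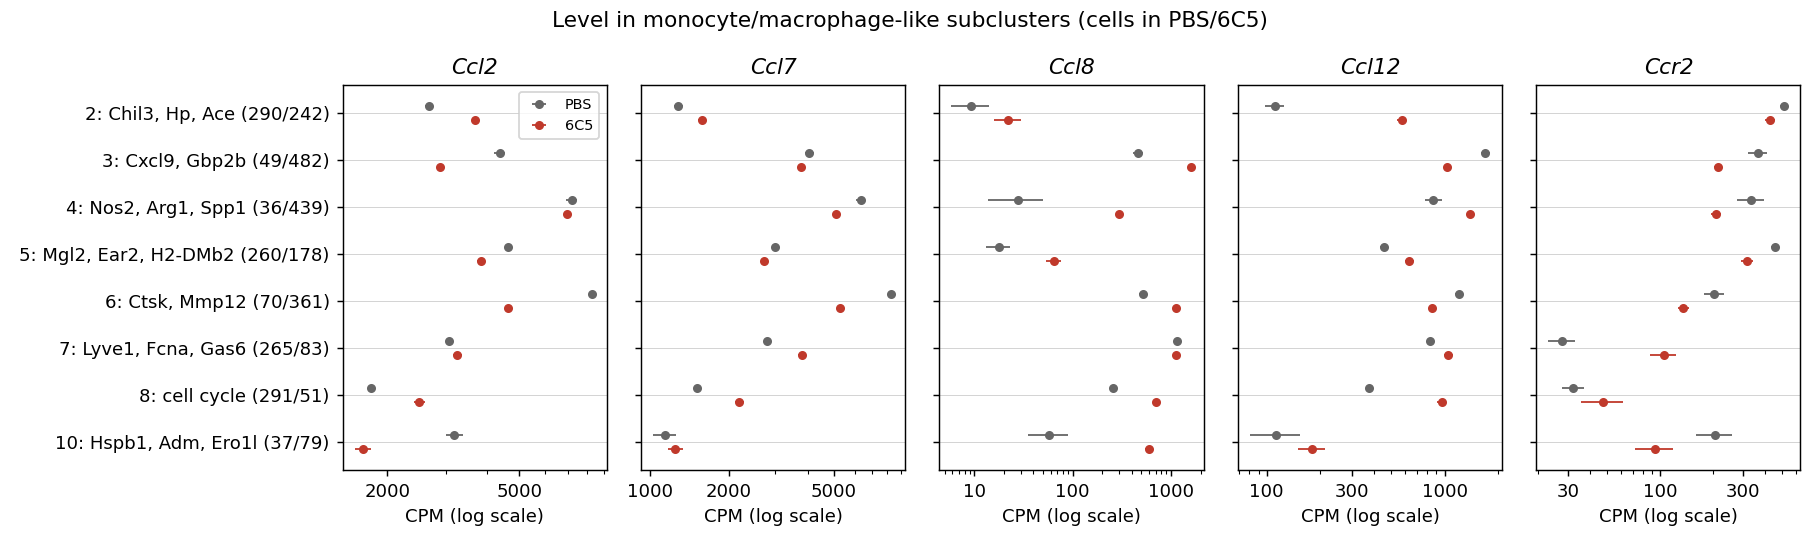
Level of each gene (CPM, log scale) in monocyte/macrophage-like subclusters named by leading genes, with 1 point per library (grey PBS, red 6C5) and exact Poisson 95% intervals. Ccl8 is higher in 6C5 in every one of the 8 compared but the Lyve1 subcluster (1150.1 and 1123), whereas Ccr2 is lower in 6 of 8.

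Ccr2 followed Ly6c2, a gene of inflammatory monocytes, across the PBS subclusters. The 4 subclusters with Ly6c2 between 1117 and 1649 CPM had Ccr2 between 331 and 513 and Ccl8 between 9.39 and 465. The Klra17, Lyve1 and cell-cycle subclusters, with Ly6c2 between 9.52 and 43.4, had Ccr2 between 20.5 and 32.0 and Ccl8 between 257 and 1150.1. C1qa, a complement gene of macrophages, was between 5022 and 6577 in these 3.

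Within subclusters Ccr2 was lower in 6C5 in 6 of 8. It went from 513 to 427 in the monocyte-like subcluster (0.832, 0.761 to 0.910) and from 456 to 315 in the Mgl2 and Ear2 subcluster (0.689, 0.626 to 0.758). In the subcluster led by Hspb1 and Adm (37 and 79 cells) it was more than 2-fold lower, at 206 and 93.2 (0.452, 0.319 to 0.640). There 4.12% of genes were at least 2-fold lower. The Lyve1 subcluster was the one with Ccr2 at least 2-fold higher, at 27.5 and 105 (3.81, 2.98 to 4.88), where 2.61% of genes were.

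More monocyte/macrophage-like cells carried ligand UMIs in the 6C5 library. After thinning to 1000 UMIs, which left 1909 and 1924 cells, 53.9% of PBS and 70.6% of 6C5 cells had a Ccl2 UMI. For Ccl7 the shares were 40.1% and 60.4%, for Ccl8 12.3% and 17.0% and for Ccl12 16.6% and 32.1%. Ccr2 was found in 14.6% (13.01% to 16.2%) and 18.6% (16.9% to 20.4%). Such intervals cover counting error among the cells of a library only, not differences between mice. How often they lie apart over all genes was not computed, so these shares are descriptions and do not set the 5 genes apart from others.

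Without thinning the Ccl8 shares were alike, at 32.8% and 33.1%. The others were 82.1% and 89.2% (Ccl2), 66.1% and 77.6% (Ccl7), 43.6% and 62.2% (Ccl12) and 39.3% and 68.3% (Ccr2). In T-like cells, which are not a known source of Ccl2, 4.89% and 6.26% of thinned cells had a Ccl2 UMI, at median depths of 5188 and 5142 before thinning.

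The number of ligand genes found per cell was higher in 6C5. Of the thinned monocyte/macrophage-like cells, 34.2% in PBS and 17.8% in 6C5 had none of the 4 ligands, and 12.5% and 25.4% had 3. All 4 were found in 2.62% (1.95% to 3.44%) and 5.46% (4.48% to 6.57%). In the Mgl2 and Ear2, the Ctsk and Mmp12 and the Lyve1 subclusters the intervals of the libraries overlapped for each number of ligands. In the cell-cycle subcluster 35.6% (30.1% to 41.5%) of PBS and 9.80% (3.26% to 21.4%) of 6C5 cells had none.

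**Figure D4:**
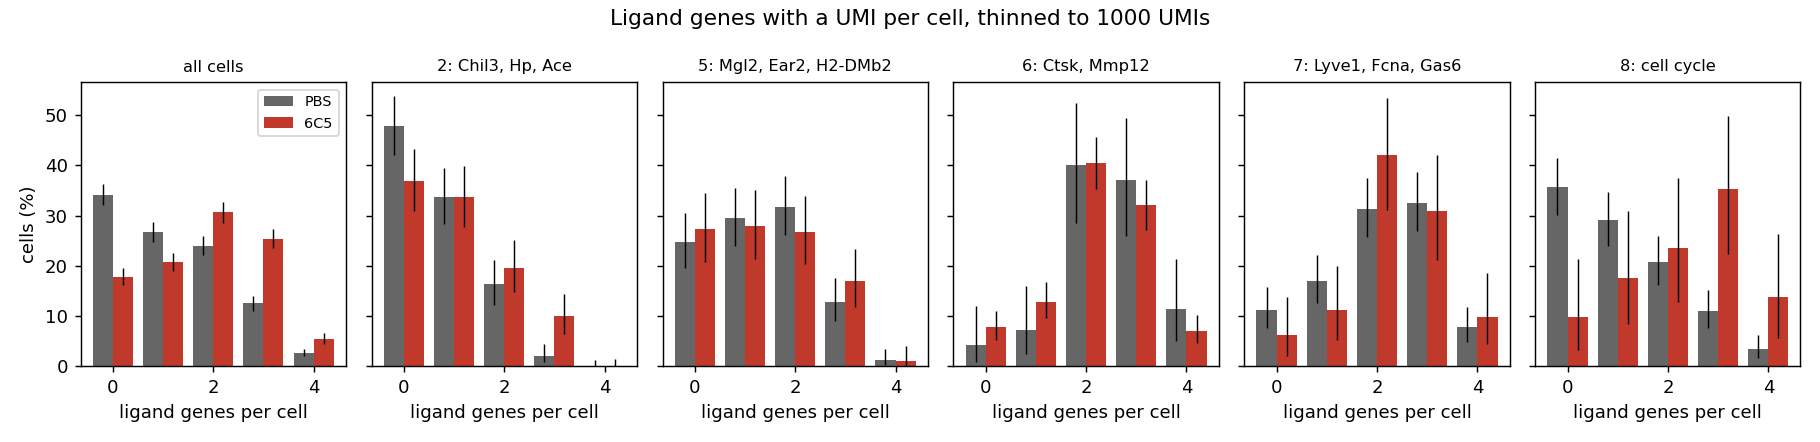
Share of monocyte/macrophage-like cells (%) by the number of the 4 ligand genes with a UMI, after thinning to 1000 UMIs, over all cells of the class and in 5 subclusters, with grey bars for PBS, red bars for 6C5 and exact Clopper-Pearson 95% intervals. Over the class, cells with no ligand are 34.2% in PBS and 17.8% in 6C5, while in the Mgl2, Ctsk and Lyve1 subclusters the intervals overlap throughout.

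Ccl2 and Ccl7 were often found in the same cells. In PBS a Ccl7 UMI was present in 60.2% (57.1% to 63.2%) of cells with a Ccl2 UMI and in 16.7% (14.3% to 19.3%) of cells without. In 6C5 the shares were 74.9% and 25.6%. The direction was the same within every subcluster and library that could be compared, with 37.7% against 6.96% in the PBS monocyte-like cells.

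Ccl8 and Ccr2 were less often found together over the class. Of PBS cells with a Ccr2 UMI, 5.40% (3.05% to 8.74%) had Ccl8, against 13.4% (11.8% to 15.2%) of those without, and in 6C5 11.2% against 18.3%. Within each subcluster that could be compared, the intervals for Ccl8 in cells with and without Ccr2 overlapped. Ccl2 was found in 72.6% of 6C5 cells with Ccr2 and 70.1% of those without, with overlapping intervals.

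Outside the monocyte/macrophage-like class, ligand UMIs were few. T-like cells had Ccl2 at 47.2 and 30.2 CPM, where free RNA was estimated to give 43.4 and 33.7. In neutrophil-like cells it was at 133 and 164, with estimates of 191 and 135, and at 129 and 127 without the top cell of each library. B-like cells had 253 and 162, above the estimates of 119 and 87.2, but 1 cell in each library held 52 of the 194 and 53 of the 103 UMIs.

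The largest ligand ratios of the DC classes rested on few cells. In cDC1-like cells Ccl12 went from 3.57 to 32.2 CPM, a ratio of 9.03 (5.26 to 16.4), where 1.32% of genes were at least 2-fold higher. However, 55 of the 70 UMIs in 6C5 came from 1 cell, and without the top cells the ratio was 2.36 (1.06 to 5.29). Ccl8 had 18 and 28 UMIs there, a ratio of 3.41 (1.82 to 6.54), but 14 of the 28 came from 1 cell. Without the top cells the ratio was 2.21 (0.976 to 4.998), an interval that includes 1, and the PBS level of 3.78 was below its free-RNA estimate of 5.97. In mature DC-like cells, named from Ccr7, Fscn1 and other markers, Ccl7 went from 30.6 to 125 (4.10, 2.96 to 5.76) and Ccl2 from 48.2 to 106 (2.21, 1.67 to 2.95), where 2.54% of genes were at least 2-fold higher. The PBS levels were below the free-RNA estimates of 50.1 and 64.8 and the 6C5 levels above those of 24.3 and 28.1. Without the top cells the ratios were 3.08 and 2.18. Of the thinned cells 5.07% and 6.34% had Ccl7 and 5.80% and 6.34% Ccl2.

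Some other class values also passed 2-fold. In NK-like cells Ccl8 was at 17.4 and 6.70, from 30 and 12 UMIs (0.385, 0.180 to 0.775), where 1.62% of genes were at least 2-fold lower. However, 12 of the 30 came from 1 cell, and without the top cells the ratio was 0.535 (0.220 to 1.22). In cDC2-like cells Ccl8 was at 10.04 and 4.92, from 38 and 9 UMIs (0.490, 0.208 to 1.03), where 3.08% were 2-fold lower. The interval includes 1, and free RNA was estimated to give 9.87 and 5.65. Melanoma-like cells had Ccl2 at 15.6 and 40.2 and Ccl7 at 12.9 and 48.0, where 3.31% of genes were at least 2-fold higher, and their free RNA could not be estimated. In PBS 1 cell held 46 of the 93 Ccl2 UMIs and 1 cell 45 of the 77 Ccl7 UMIs, and without the top cells the ratios moved from 2.58 to 4.21 and from 3.72 to 7.44. Of their 8 and 200 Ccl8 UMIs, 83 of those in 6C5 came from 1 cell, and Ccl12 had 6 and 66 UMIs.

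Ccr2 was lower in 6C5 in most of the other classes. In NK-like cells it went from 287 to 217 CPM (0.757, 0.661 to 0.866). In cDC1-like cells it went from 191 to 121 (0.633, 0.550 to 0.727) and in cDC2-like cells from 240.2 to 198 (0.824, 0.728 to 0.932). T-like cells had 57.8 and 40.4 (0.698, 0.559 to 0.872). None of these 4 ratios reached 2-fold, as 1.62% of genes did downward in NK-like, 2.93% in cDC1-like, 3.08% in cDC2-like and 1.72% in T-like cells. The cDC2-like and mature DC-like classes depended on the clustering. With each library clustered on its own, no 6C5 cells were named cDC2-like and 325 mature DC-like, against 147. With the chemokine genes kept in the clustering, no cells of either library were named cDC2-like and 452 and 291 mature DC-like, against 139 and 147.

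Mature DC-like, neutrophil-like and B-like cells lay at the bottom of the order of immune classes for Ccr2, and their intervals overlapped in PBS. Mature DC-like cells were at 13.02 and 26.6 (2.04, 1.17 to 3.68), from 20 and 41 UMIs. Neutrophil-like cells were at 10.4 and 4.78, where free RNA was estimated to give 10.9 and 5.79 and 14.7% of genes were at least 2-fold lower. B-like cells were at 22.2 and 9.43, from 17 and 6 UMIs, where 3.07% of genes were at least 2-fold lower. Without thinning, 3.15% and 1.26% of B-like cells had a Ccr2 UMI.

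Among the subclusters of T and NK cells Ccr2 varied widely. The subcluster led by Cd8a had 6.04 CPM in PBS and 6.80 in 6C5, from 5 and 8 UMIs. The one led by Il17a and Tcrg-V6, genes of gamma-delta T cells, had 385 and 335, from only 14 and 13 cells. The subcluster led by Foxp3 and Il2ra, genes of regulatory T cells, had 148 and 104. The one led by Cd40lg, the CD40 ligand gene, had 190.3 and 81.2 (0.427, 0.251 to 0.704). The larger NK-like subclusters were high, with 327 and 235 in the one led by S1pr5 and 246 and 192 in the one led by Xcl1 and Gzmc. Smaller NK-like subclusters, of 17 and 26 cells and of 10 and 15 cells, are not reported here. The plasmacytoid DC-like subcluster (68 and 64 cells, led by Siglech) was at 165 and 44.5 (0.269, 0.157 to 0.439), from 95 and 20 UMIs. For this subcluster and the Cd40lg one, the share of all genes at least 2-fold lower was not computed.

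**Figure D5:**
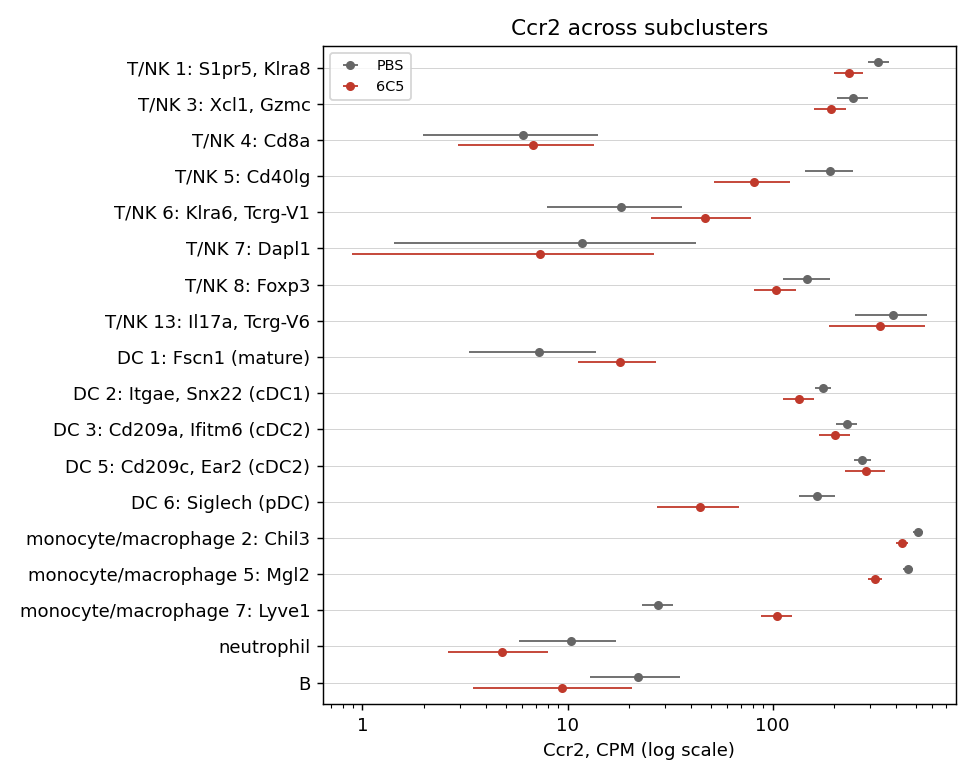
Ccr2 level (CPM, log scale) in lymphoid, DC and monocyte/macrophage-like subclusters and 2 classes, with 1 point per library (grey PBS, red 6C5) and exact Poisson 95% intervals. Ccr2 is lowest where Cd8a, Dapl1 or Fscn1 lead and in neutrophil-like and B-like cells, and highest in the Chil3 monocyte-like subcluster (513 and 427).

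Other CC chemokine genes of monocyte/macrophage-like cells stood higher in the 6C5 library as well. Of 10 in the list, 8 were measured (at least 30 UMIs), 2 were at least 2-fold higher and none lower (3.47% and 13.9% of all genes in this class), with a median log2 ratio of 0.73 against -0.32 over all genes. Ccl5, another chemokine gene of macrophages and T cells, went from 134 to 341 CPM (2.54), Ccl6 from 1368 to 2403 (1.76) and Ccl9 from 655 to 1163 (1.77). Ccl17, a ligand of CCR4, had 7 and 96 UMIs, a ratio of 16.3 (7.63 to 41.7). Ccl11 had 6 and 1 UMIs and Ccl1, which follows Ccl8 on chromosome 11, 10 and 0, and neither was measured.

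The other receptors showed no 2-fold difference among the 4 of 7 that were measured (median 0.67). Ccr1, another receptor of CCL7, went from 80.6 to 142 (1.76), Ccr3 from 1.75 to 2.97 (1.70) and Ccrl2, which binds chemerin, from 401 to 731 (1.82). Of 18 genes of chemokine receptor signalling none was 2-fold higher and 1 was lower, against 3.47% and 13.9% of all genes (median -0.19): Pik3cg, a PI3-kinase subunit downstream of G proteins, went from 40.9 to 19.9 (0.486). Nup85, whose product binds CCR2, went from 22.4 to 11.8 (0.527), the exchange factor gene Prex1 from 89.6 to 55.1 (0.615), and Rgs1, a brake on G-protein signalling, from 599 to 1122 (1.87).

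Among 24 inducers and regulators of ligand transcription 2 were 2-fold higher and none lower, against 3.47% and 13.9% of all genes (median 0.24). The cytokine gene Tnf went from 628 to 1452 (2.31) and Il6 from 18.7 to 42.6 (2.27), while Irf7, an interferon regulatory factor, went from 438 to 874 (2.00, just under 2) and Il1b from 2052 to 3757 (1.83). Of 15 genes of monocyte adhesion, survival and mobilisation 14 were measured (median 0.19). Spn, which encodes CD43, was more than 2-fold lower, as 13.9% of all genes were, at 25.6 and 9.74 (0.380). Csf1r, the receptor for CSF1, went from 450.3 to 259 (0.574), and Selplg, which encodes a selectin ligand, from 270.3 to 156 (0.576). These lists were not divided by subcluster, and the part of the changed makeup in them was not tested.

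Over 59 sums of UMIs by class or subcluster and library, the level of Ccl2 was close to that of C3ar1, Fcgr1, Lyz2 and Gm31522 (Pearson r of log2 of CPM plus 1 from 0.92 to 0.95, among 12031 genes). Ccl7 was close to C3ar1, Msr1, Pf4 and Trem2 (0.94 to 0.96), and Ccl12 to C3ar1, Cndp2, Slc11a1 and Trem2 (0.91 to 0.95). Ccl8 was most like Folr2, Ms4a7, Pf4, Igf1 and Trem2 (0.91 to 0.95). Among the ligands the closest pair was Ccl2 and Ccl7 (0.98). The nearest genes to Ccr2 were Ahnak, Crlf2, Prkx, Itgb2 and Tgfb1, with lower values (0.66 to 0.72), and Ccr2 itself had r of 0.33 with Ccl2 and 0.07 with Ccl8. The sums share the same libraries, and subclusters are part of their classes, so these values are descriptions.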

How the data were processed

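The deposited values are unfiltered, unnormalized UMI counts, 1 matrix per library. Per the file headers the software was Cell Ranger 7.1.0, and per the submitters' processing notes it was Cell Ranger 2.1.1 with mm10; no source says how intronic reads were treated.

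Barcodes needed 500 UMIs, 300 genes and no more than 10% mitochondrial UMIs (13992 in PBS, 13541 in 6C5). Scrublet's own threshold marked 0 in both, so the 1566 and 1467 highest-scoring barcodes were removed (0.8% per 1000). The rest were clustered together without these 5 genes and related lists, 22 genes in all (scanpy 1.11.5, 2000 variable genes, 30 components, 15 neighbours, Leiden resolution 1). Clusters were named "-like" with at least 3 markers among 200 leading genes; subclusters are called by leading genes. Set aside were clusters like free RNA (6648 and 6258 barcodes), mixed (309 and 369), shallow (564 and 86) and those with fewer than 3 markers (647 and 591). Like free RNA meant r of 0.93 or more with barcodes of 10 to 100 UMIs, a bound set after seeing the data. Most shallow barcodes were 1 cluster (541 and 86) led by Lyve1, Npl and Fcna, with 9 of 11 macrophage markers. A mixed cluster led by Negr1 and Klra17 (51 and 1) had 6 of 11. The monocyte/macrophage-like class leaves both out.

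UMIs were summed by class and library, and these sums are what the ratios compare. Ratios carry exact conditional binomial, levels exact Poisson and shares Clopper-Pearson 95% intervals. Free RNA was estimated from genes of melanoma and red blood cells. Ratios needed 100 cells per class and library, or 50 per subcluster. For monocyte/macrophage-like subclusters the bound was 30, both for single ratios and in the comparison of makeup. TMM factors were computed with edgeR 4.0.16 (R 4.3.3). The ratio and thinning steps were tested on simulated data. For the ratios these were independent counts per gene, which cannot show how UMIs concentrated in few cells affect the intervals. The 5 genes, the lists and the comparisons were chosen with earlier results of these data known. Named are the 5 genes, their chromosomal neighbours, up to 4 genes per list with the largest absolute log2 ratio in monocyte/macrophage-like cells, and per member the 5 genes most similar in level; a few of these genes are not reported here. Ly6c2 and C1qa, and leading genes of subclusters, are named as descriptions.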

Additional observations from a re-analysis of the deposited data

How the results depend on the processing

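No paired analysis was possible because each group has 1 library, and for the same reason no library could be left out. In monocyte/macrophage-like cells the ratios of the 5 genes stayed above 1 under each alternative except the same subcluster makeup, which gave 0.845 for Ccl2, 0.906 for Ccl7, 2.05 for Ccl8, 1.12 for Ccl12 and 0.750 for Ccr2. TMM gave 1.96, 2.25, 2.82, 2.49 and 1.85, and moved the genes at least 2-fold higher from 430 to 747 and those lower from 1723 to 928. Subtracting free RNA gave 1.59 for Ccl2, 1.82 for Ccl7, 2.34 for Ccl8 and 2.02 for Ccl12. Clustering each library on its own gave 1.62 for Ccl2, 1.81 for Ccl7 and 1.75 for Ccr2. Ccl8 was 2.36 with at least 1000 UMIs, 2.38 without doublet removal, 2.34 at resolution 2 and 2.40 with the chemokine genes kept in the clustering, and Ccl12 2.04 and 2.03 in the last 2. Ccl12 was thus on either side of 2-fold, and the cause was not tested.

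Thinned to 2000 UMIs, the shares of PBS and 6C5 cells with a UMI were 64.7% and 79.4% (Ccl2), 46.6% and 67.0% (Ccl7), 17.6% and 22.2% (Ccl8), 24.8% and 41.6% (Ccl12) and 21.9% and 33.0% (Ccr2). Unthinned, they were 82.1% and 89.2%, 66.1% and 77.6%, 32.8% and 33.1%, 43.6% and 62.2%, and 39.3% and 68.3%. With all barcodes that passed the filter in the denominator, the class gave 75.8% and 70.8% of Ccl2, 78.8% and 71.5% of Ccl7, 76.5% and 71.8% of Ccl8, 77.7% and 69.8% of Ccl12 and 46.4% and 56.8% of Ccr2 UMIs. Leaving out the cell with the most UMIs of a gene in each library, an alternative chosen after seeing the data, turned the Ccl8 ratio of the monocyte-like subcluster to 0.926. Genes with few UMIs, such as Ccl8 in monocyte-like cells or Ccr2 in neutrophil-like cells, cannot be told from free RNA at this depth.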
